A study of Mus musculus with 21 samples.

Results

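Heat shock and endoplasmic reticulum (ER) chaperone genes were followed by RNA-seq through directed motor neuron differentiation of mouse embryonic stem cells, with and without GSKJ4, an inhibitor of the Kdm6 family of histone H3K27 demethylases. The set held 10 of the 55400 genes in the count table, chosen by name. The 5 cytosolic members were Hspa1a, Hspa1b, Hsph1, Dnajb1 and Hspa8. The 5 ER members were Hspa5, Hsp90b1, Xbp1, Dnajb9 and Herpud1. All 10 passed the filter on low counts in every fit. Wild-type C57BL/6 stem cells, kept on mouse embryonic fibroblast feeders treated with Mitomycin C, were taken as embryoid bodies through 1 μM retinoic acid and 0.5 μM SAG (a Sonic hedgehog agonist). The Notch pathway inhibitor DAPT (5 μM), for hypaxial motor column fate, was added at day 4 to the medium with retinoic acid and SAG. At day 5 it was given in a medium for which neither is listed. The sources used here do not say whether D4 cells met DAPT before harvest. Over the course, stage and medium changed together and cannot be told apart. The 7 groups of 3 libraries were untreated D4 (day 4), D4H8 (8 h after day 4), D5 and D6, and the GSKJ4-treated D4H8, D5 and D6, each exposed for 1 day before harvest. All groups shared this genotype, and each treated group had an untreated group of its own stage. The GSKJ4 dose of these cultures is not given in the sources used here. The labels call the libraries biological replicates but do not say what separated the cultures, so p-values measure the spread between these samples.

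When proteins unfold in the cytosol, the transcription factor HSF1 is released from chaperones and binds heat shock elements, inverted repeats of GAA and TTC units, to induce genes such as Hspa1a, Hspa1b, Hsph1 and Dnajb1. When they unfold in the ER, the sensors IRE1, ATF6 and PERK start the unfolded protein response. IRE1 splices the Xbp1 mRNA, ATF6 and XBP1 act through ER stress response elements on ER chaperones and on ER-associated degradation, and PERK acts through ATF4. Neurons depend on both systems, and motor neurons are known for a high threshold of the inducible heat shock response.

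The members lie on 8 chromosomes of GRCm38 (mm10). Hspa1a (chr17:34969190-34972156, minus strand) and Hspa1b (chr17:34956436-34959238, minus strand) are neighbours that encode nearly identical inducible HSP70 proteins. The other cytosolic members are Hsph1 (chr5:149614287-149636376, minus), the HSP110 nucleotide exchange factor, Dnajb1 (chr8:83608193-83612653, plus), the HSP40 J-protein, and Hspa8 (chr9:40800984-40810087, plus), the constitutive HSC70. The ER members are Hspa5 (chr2:34771970-34777547, plus), which encodes BiP, Hsp90b1 (chr10:86690209-86705509, minus), which encodes GRP94, and Xbp1 (chr11:5520659-5525893, plus), the factor spliced by IRE1. Dnajb9 (chr12:44205559-44210326, minus) encodes ERdj4, a BiP co-chaperone, and Herpud1 (chr8:94386438-94395377, plus) encodes a component of ER-associated degradation.

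Promoter windows of 300 bases (250 before and 50 from the RefSeq start, GRCm38.p6) were present for 9 of the 10 members, with 2 entries each for Hsph1 and Dnajb1, and were searched on both strands. A pair of heat shock units (GAANNTTC or TTCNNGAA) lay in the windows of Hspa1a, Hspa1b and Hsph1 and in 15.1% of the 32851 windows of the table. A triple of alternating units, which is 2 overlapping pairs, lay only in Hsph1 among the members and in 0.603% of windows. The ER stress response element (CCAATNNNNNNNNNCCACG) lay in Hspa5 and Hsp90b1 and in 0.119% of windows. Its shorter form (ATTGGNCCACG) lay in Herpud1 and in 0.0365% of windows. None of these letters lay in the windows of Dnajb1, Xbp1 and Dnajb9. The sequences are shown because they hold the motifs found in cytosolic or in ER members, and capitals mark the matched letters. The Hspa1a and Hspa1b stretches are the 250 bases before the start (chr17:34972157-34972406 and chr17:34959239-34959488, minus strand). They were identical at 247 of 250 bases.
Hspa1a: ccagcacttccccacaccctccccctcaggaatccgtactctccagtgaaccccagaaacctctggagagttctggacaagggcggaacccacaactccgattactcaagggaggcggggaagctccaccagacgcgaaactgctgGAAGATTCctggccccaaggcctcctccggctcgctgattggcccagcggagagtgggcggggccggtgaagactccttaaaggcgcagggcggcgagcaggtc
Hspa1b: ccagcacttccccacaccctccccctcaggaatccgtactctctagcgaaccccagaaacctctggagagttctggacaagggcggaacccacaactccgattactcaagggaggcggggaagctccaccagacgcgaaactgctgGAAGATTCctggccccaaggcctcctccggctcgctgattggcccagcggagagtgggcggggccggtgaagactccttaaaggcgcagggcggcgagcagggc
For Hsph1 only 30 bases after the start, with the triple, are shown (chr5:149636287-149636316, minus strand).
Hsph1: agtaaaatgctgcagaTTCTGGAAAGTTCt
For the ER members, the stretches are 30 bases of Hspa5 (chr2:34772019-34772048, plus strand), 185 bases of Hsp90b1 with a match on each strand (chr10:86705510-86705694, minus strand) and 250 bases of Herpud1 (chr8:94386179-94386428, plus strand).
Hspa5: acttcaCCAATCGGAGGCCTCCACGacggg
Hsp90b1: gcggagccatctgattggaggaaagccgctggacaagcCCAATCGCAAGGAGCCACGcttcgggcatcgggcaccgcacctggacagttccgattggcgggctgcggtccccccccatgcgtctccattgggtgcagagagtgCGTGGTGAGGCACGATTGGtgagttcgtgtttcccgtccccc
Herpud1: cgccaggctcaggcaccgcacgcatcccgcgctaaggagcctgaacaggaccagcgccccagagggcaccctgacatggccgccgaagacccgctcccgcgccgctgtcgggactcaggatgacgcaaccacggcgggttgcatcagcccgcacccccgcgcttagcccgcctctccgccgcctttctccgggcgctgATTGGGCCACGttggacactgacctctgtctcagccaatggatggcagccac

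Library totals ran from 14982115 to 34383842 counts with a median of 16238435. The treated D5 replicate 2 stood apart, with 39381 genes at 0 against 29339 to 32805 in the other libraries, and results that rest on it are given with and without it. The mitochondrial share of counts was 0.335% to 5.33% and was highest in treated D4H8 replicate 2. That library was also least like its group, with a mean chi-square per gene of 104 and 86.1 against treated replicates 1 and 3. Those other replicates differed by 33.7 from each other. Without treated D4H8 replicate 2, edgeR called 1746 genes for GSKJ4 at D4H8 in place of 644, and still 0 members. Motor neuron markers followed the labels: summed FPKM of 7 of them was 7.6 to 19.2 at D4 and 410 to 470.3 at D6. The 5 motor neuron progenitor markers did not fall as a set, at 119 to 190 FPKM at D4 and 135 to 203 at D6. From D4 to D6, edgeR called 2 of these 5 as raised and 3 as lowered. The cultures were mixed, since 7 pluripotency markers still summed to 14.6 to 107 FPKM at D6, and 8 markers of fibroblasts, the feeder type, to 12.4 to 27.9 FPKM. In bulk RNA a change in the share of cells of a type and a change in RNA per cell cannot be told apart.

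Levels are compared between genes in FPKM, fragments scaled by exon length and by library size. The constitutive Hspa8 was the most abundant member in all 7 groups, at 813 ± 92.8 FPKM (SD, n = 3) at D4, and ranked 33 among all genes there. Hsp90b1 (223 ± 14.3) and Hspa5 (191 ± 25.4) followed at D4, the lowest Hsp90b1 library being level with the highest Hspa5 library. Hsph1 (31.6 ± 1.67), Dnajb1 (22.2 ± 2.92), Xbp1 (17.6 ± 2.00), Herpud1 (12.99 ± 4.02) and Dnajb9 (7.44 ± 0.885) were intermediate. The inducible Hspa1b (1.45 ± 0.361) and Hspa1a (0.393 ± 0.0252) were the lowest, and no library of any group exceeded 1.98 FPKM for Hspa1a or 4.23 FPKM for Hspa1b.

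**Figure D1:**
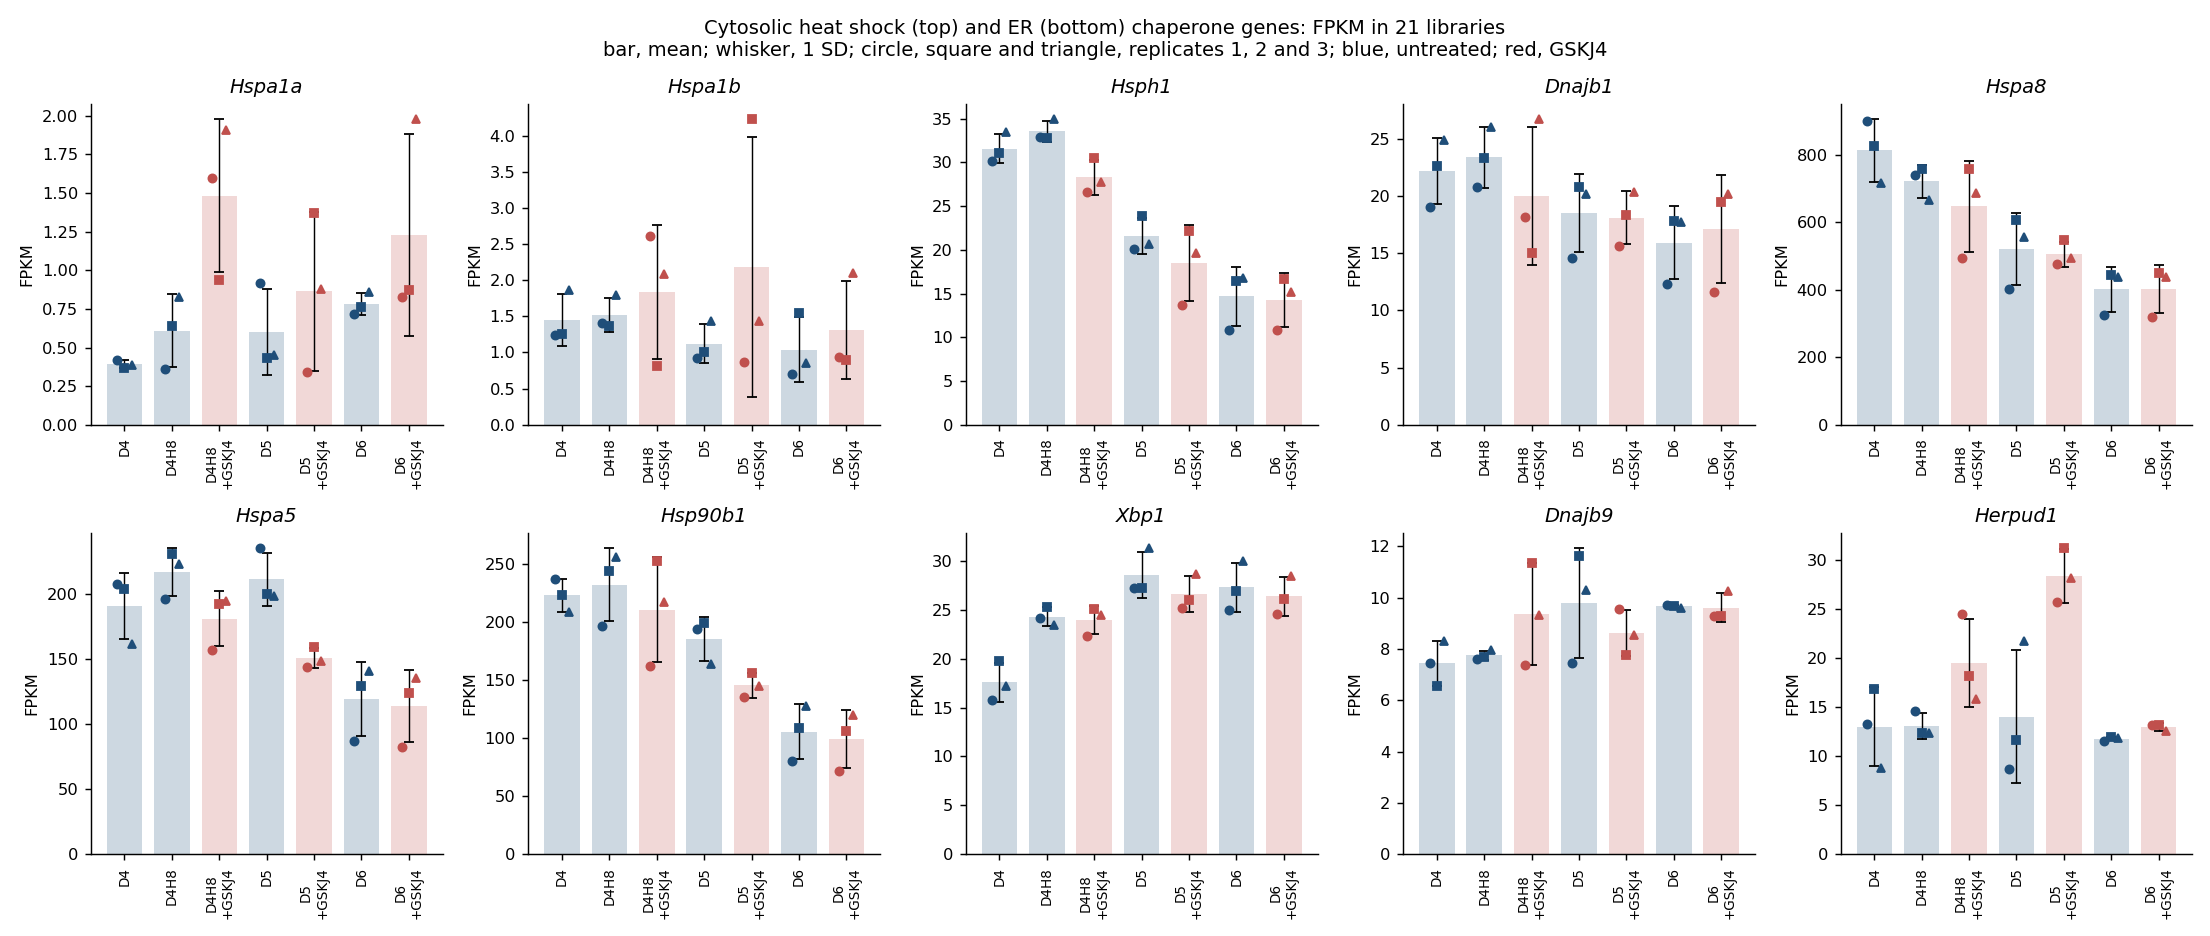
FPKM (y axis, linear from 0) of the 10 genes in the 7 groups (x axis), cytosolic members in the top row and ER members in the bottom row, with means of 3 libraries, whiskers of 1 SD and points for single libraries. Hspa8, Hsph1, Hspa5 and Hsp90b1 fall from D4 to D6, Xbp1 rises, and the treated Herpud1 libraries at D5 (25.7 to 31.2 FPKM) lie above the untreated ones (8.69 to 21.7 FPKM).

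Hspa1a and Hspa1b values rest on few and partly shared reads. Of all 75-base stretches of the annotated Hspa1a transcripts, 61.7% also occur in another gene, mostly Hspa1b, and 55.8% of those of Hspa1b occur in Hspa1a. Hspa1a had 19 to 98 counts per library and Hspa1b 32 to 186, so that reads which fit both genes could be split or lost in counting. For Hspa8 the shared part was 33.1%, mostly with the pseudogene Gm15459, for Hsp90b1 6.73% and for Dnajb9 2.55%, and none was shared for the other 5. In the GENCODE vM21 annotation Hspa1a, Hsp90b1 and the start of Herpud1 also overlap genes on the opposite strand (Gm20481, 1810014B01Rik and Gm15890), and the counting strand is not given in the sources used here, so their reads could be mixed.

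The untreated course, without GSKJ4, asks how chaperone expression shifts as progenitors become motor neurons, in cultures whose medium also changed. From D4 to D6, 5 members fell and 3 rose by edgeR's quasi-likelihood test (Benjamini-Hochberg adjusted p under 0.05 over 17519 genes), beside a background of 63.9% of all tested genes called, 32.9% raised and 31% lowered. The same 8 members separated D6 from D4 fully in CPM, counts scaled to library size, as did 70.1% of all genes, so a count of 8 of 10 is near what all genes gave. The members that fell were Hspa8, Hsph1, Dnajb1, Hspa5 and Hsp90b1, from both compartments, and those that rose were Xbp1, Dnajb9 and the low-count Hspa1a.

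Among the cytosolic members, the HSP110 gene Hsph1 measured 30.2, 31.1 and 33.4 FPKM at D4 and 10.8, 16.4 and 16.8 at D6. The groups did not overlap, and Hsph1 fell by 1.05 on the log2 scale (SE 0.137, edgeR adjusted p = 1.34e-05). Hspa8 measured 899, 826 and 715 FPKM at D4 and 325, 442 and 437 at D6. It also separated the groups fully and fell by 0.97 (SE 0.180, edgeR adjusted p = 0.000310). Dnajb1 fell by 0.41 (SE 0.150, edgeR adjusted p = 0.0270), from 22.2 ± 2.92 to 15.9 ± 3.17 FPKM (n = 3). Without D4 replicate 2 or D6 replicate 1 this call was lost (adjusted p = 0.0563 and 0.120).

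The inducible pair parted. Hspa1a measured 0.37 to 0.42 FPKM at D4 and 0.72 to 0.86 at D6 and rose by 1.04 (SE 0.390, edgeR adjusted p = 0.0318). Hspa1b measured 1.24 to 1.87 FPKM at D4 and 0.70 to 1.55 at D6, which gave -0.42 on the log2 scale (SE 0.309) and an edgeR adjusted p = 0.251. With the counts of both genes summed, the log2 fold change was 0.06 (edgeR adjusted p = 0.839). The Hspa1a call was also lost without any 1 of the 3 D4 or 3 D6 libraries, with adjusted p up to 0.0873, and in 4 of 8 alternatives with all libraries, the summed counts among them.

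In the ER, Hsp90b1, a glycoprotein chaperone, measured 237, 223 and 208 FPKM at D4 and 80.0, 109 and 128 at D6, and fell by 1.03 (SE 0.166, edgeR adjusted p = 9.57e-05). Hspa5, the BiP gene, measured 208, 204 and 162 FPKM at D4 and 87.4, 129.5 and 141 at D6. It fell by 0.63 (SE 0.176, edgeR adjusted p = 0.00611), and no D6 library reached any D4 library for either gene. Xbp1 went the other way, from 15.8, 19.7 and 17.2 FPKM at D4 to 25.0, 27.0 and 29.98 at D6, a log2 rise of 0.70 (SE 0.109, edgeR adjusted p = 6.48e-05). Counts per gene do not tell the spliced from the unspliced Xbp1 mRNA. Dnajb9 rose by 0.44 (SE 0.160, edgeR adjusted p = 0.0267), a call lost without D4 replicate 2 or 3, D5 replicate 3 or D6 replicate 1 or 2 (adjusted p up to 0.119). It was also lost in 3 of 8 alternatives with all libraries, and under upper-quartile scaling the value was 0.29 (edgeR adjusted p = 0.125). Herpud1 had a log2 fold change of -0.09 with a 95% interval from -0.70 to 0.52.

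The single steps placed these changes in time. At D4H8 against D4, 1 of 10 members was called, beside 4.38% of all genes. This was Xbp1, which rose by 0.42 (SE 0.108, edgeR adjusted p = 0.0434), and the call was lost without any 1 library of either group, or without D6 replicate 2 or 3 (adjusted p up to 0.189). At D5 against D4H8, 1 of 10 was called, beside 27.7% of all genes, and it was Hsph1, which fell by 0.63 (SE 0.136, edgeR adjusted p = 0.00311). With the replicate numbers as a block, Dnajb1 was called there too (edgeR adjusted p = 0.0351). Hspa8 had a log2 fold change of -0.47 (edgeR adjusted p = 0.0655) and was called by DESeq2 (adjusted p = 0.0257). It was also called by edgeR without D4 replicate 1 or 3 or D5 replicate 2 (adjusted p = 0.0362, 0.0247 and 0.0270). Without D5 replicate 1, Dnajb9 was called there as raised, so that 2 members were called.

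At D6 against D5, 3 of 10 were called, beside 34.3% of all genes. Hspa5 fell by 0.72 (SE 0.176, edgeR adjusted p = 0.00618), Hsp90b1 by 0.71 (SE 0.165, adjusted p = 0.00474) and Hsph1 by 0.45 (SE 0.136, adjusted p = 0.0204). The Hsph1 call was lost without D5 replicate 2 or D6 replicate 1 (adjusted p = 0.0628 and 0.0815). Hsph1 was thus called at both later steps, and Hspa5 and Hsp90b1 at the last one.

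The wider chaperone lists, which include the members, gave these counts from D4 to D6 by the same edgeR test, beside 32.9% of all tested genes raised and 31% lowered. All 8 subunits of the cytosolic chaperonin TRiC fell, with a median log2 fold change of -0.91 and a range from -1.15 to -0.73, while the median of all tested genes was -0.04. Of 9 mitochondrial chaperones, 8 fell (median -0.96). Of 24 HSF1 target genes, 14 fell and 4 rose (median -0.79), and of 18 HSP90 genes and co-chaperones 10 fell and 1 rose (median -0.57). The HSP70 and J-protein lists, with 12 genes each, had 4 raised and 4 lowered genes each, near the shares over all genes. Of 8 tested small heat shock protein and HSF genes 2 rose and 2 fell. In the ER, 14 of 21 chaperones and folding enzymes fell and 1 rose (median -0.53), and 12 of 18 genes of ER entry and export fell (median -0.63). ER-associated degradation had 7 raised and 1 lowered of 18 (median 0.24), UPR sensors and factors 5 raised and 2 lowered of 11 (median 0.10), and the PERK-ATF4 arm 2 raised and 8 lowered of 12 (median -1.16). Over the same days the 7 motor neuron markers all rose, with a median log2 fold change of 7.01, and its part in these values was not tested.

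**Figure D2:**
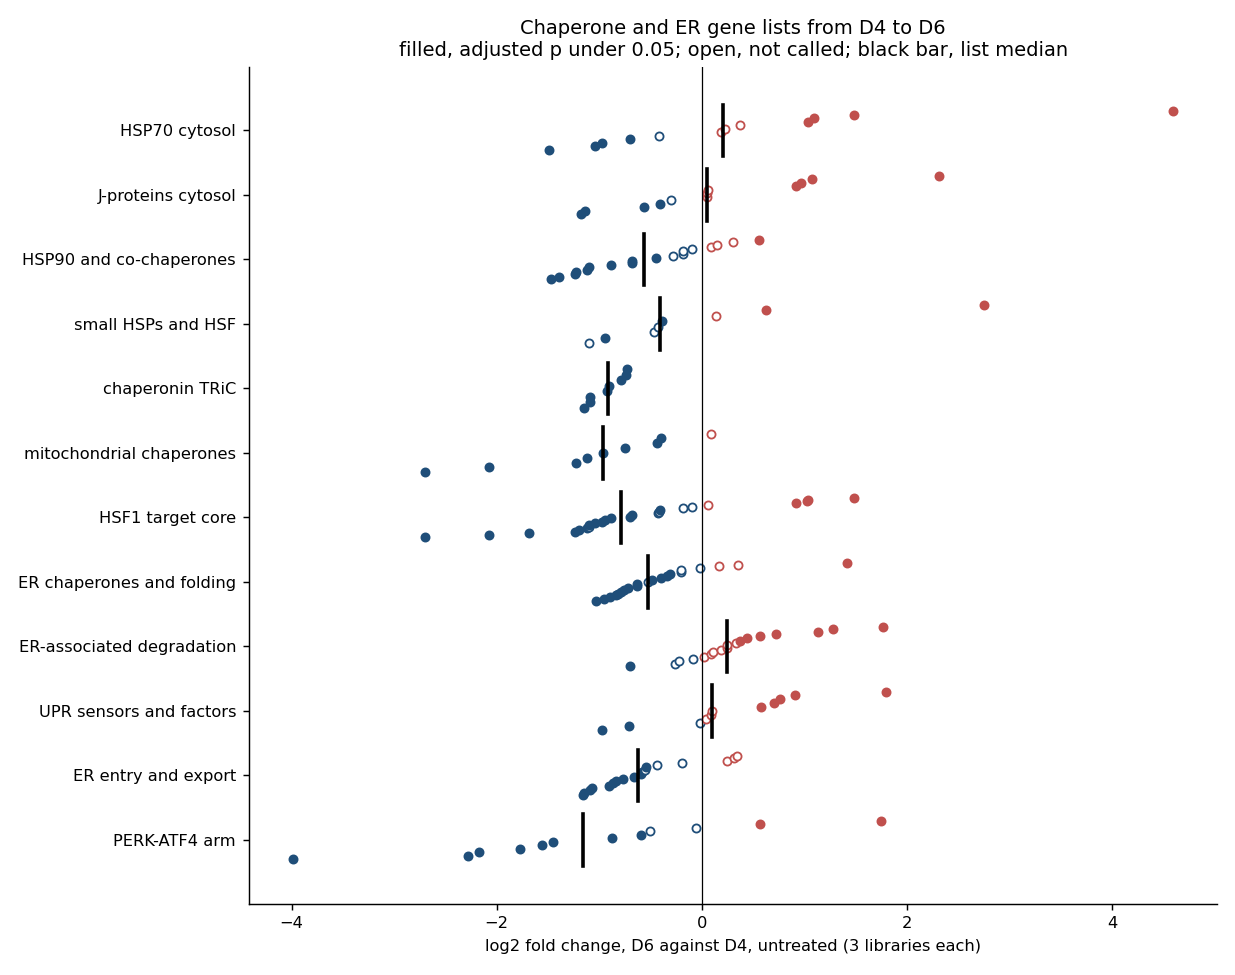
Log2 fold change of untreated D6 against D4 (x axis, 3 libraries per group) for each tested gene of 12 lists (rows), with filled points at adjusted p under 0.05, open points otherwise, and black bars at list medians. All 8 TRiC points lie between -1.15 and -0.73, ER chaperones lie mostly below 0 and ER-associated degradation mostly above.

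The GSKJ4 comparisons ask whether blocking H3K27 demethylation changes the cytosolic heat shock or the ER unfolded protein program at D4H8, D5 or D6. No member was called by edgeR at any stage. The background was 3.96% of 16269 genes at D4H8, 0.00613% of 16309 (1 gene) at D5 and 0% of 16301 at D6, so that the D5 and D6 tests called next to nothing in any gene. At an unadjusted p under 0.05, edgeR gave 2 of 10 members at D4H8 (25.1% of all genes), 3 of 10 at D5 (4.7%) and 0 of 10 at D6 (1.36%). DESeq2 called 1 member at D4H8 (11.7% of genes), 0 at D5 (0.362%) and 0 at D6 (0.00326%), with 2, 3 and 0 members at an unadjusted p under 0.05 (14.4%, 3.7% and 0.718% of genes).

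**Figure D3:**
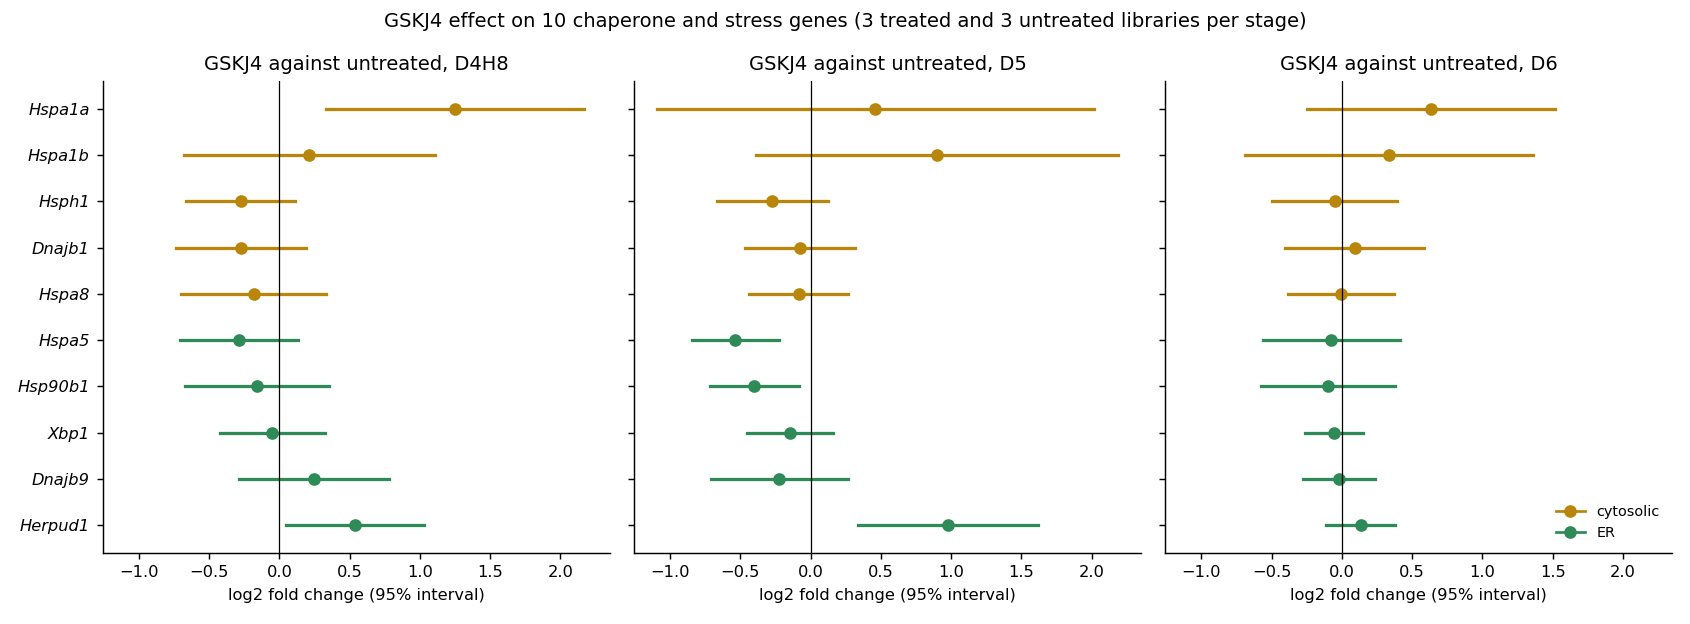
Log2 fold change of GSKJ4-treated against untreated libraries (x axis) with edgeR 95% intervals for the 10 members (rows) at D4H8, D5 and D6, 3 libraries per group. Intervals that leave out 0 are those of Hspa1a and Herpud1 at D4H8 and of Hspa5, Hsp90b1 and Herpud1 at D5, and at D6 all 10 include 0.

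At D4H8 the largest member change was that of Hspa1a. It measured 0.36, 0.64 and 0.83 FPKM in untreated and 1.60, 0.94 and 1.91 in treated libraries, with every treated library above every untreated one. With Hspa5, which lay lower, 2 of 10 members separated the groups fully in CPM, beside 33.4% of all genes (16.7% higher, 16.6% lower). The Hspa1a log2 fold change was 1.25 (95% interval 0.33 to 2.17) with an edgeR adjusted p = 0.102. DESeq2 called it (adjusted p = 0.0414), and without single libraries the edgeR value lay between 0.97 and 1.52. Hspa1b measured 1.41, 1.36 and 1.79 FPKM untreated and 2.61, 0.81 and 2.09 treated, so that the groups overlapped. Its log2 fold change was 0.21 (95% interval -0.68 to 1.11), and the sum of the pair gave 0.60 (edgeR adjusted p = 0.298). The other cytosolic members had negative values, from -0.18 (Hspa8) to -0.28 (Hsph1), and all 3 intervals included 0.

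Herpud1, the ER-associated degradation gene with the short ER stress element, measured 14.6, 12.3 and 12.3 FPKM in untreated and 24.5, 18.2 and 15.8 in treated D4H8 libraries. Its log2 fold change was 0.54 (95% interval 0.05 to 1.03) with an edgeR adjusted p = 0.167. The treated libraries were the higher ones in FPKM, and in CPM, scaled by the trimmed mean of M-values, treated replicate 3 (33.7) fell below untreated replicate 1 (35.8). Hspa5, the BiP gene, had lower CPM in all 3 treated libraries (636 to 867) than in the untreated ones (873 to 967), with a log2 fold change of -0.29 (95% interval -0.71 to 0.13). Hsp90b1 had -0.16 (95% interval -0.67 to 0.36), Xbp1 -0.05 (-0.43 to 0.33) and Dnajb9 0.25 (-0.29 to 0.78).

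At D5 no ER member was called, and the 3 with intervals that left out 0 were Herpud1, with a positive value, and Hspa5 and Hsp90b1, with negative ones. Herpud1 measured 8.69, 11.7 and 21.7 FPKM in untreated and 25.7, 31.2 and 28.2 in treated libraries, with no overlap. The log2 fold change was 0.98 (95% interval 0.34 to 1.61) with an edgeR adjusted p = 0.901. Of the alternatives, the fit without a filter on low counts called it (adjusted p = 0.000920), and the others with all libraries gave 0.0957 to 0.907. Without single libraries the value lay between 0.74 (without D5 replicate 1) and 1.42 (without D5 replicate 3), the untreated libraries with the lowest and highest level. Hspa5 measured 235, 201 and 199 FPKM untreated and 144, 160 and 149 treated, with a log2 fold change of -0.54 (95% interval -0.85 to -0.22) and an edgeR adjusted p = 0.721. Hsp90b1 measured 194, 199 and 164 FPKM untreated and 135, 156 and 145 treated, with a log2 fold change of -0.40 (95% interval -0.71 to -0.08) and an edgeR adjusted p = 0.976. For both genes the highest treated library was under the lowest untreated one. With Herpud1, 3 of 10 members separated the groups fully, beside 11.7% of all genes (5.13% higher, 6.6% lower). Xbp1 had -0.15 (95% interval -0.45 to 0.16) and Dnajb9 -0.22 (-0.71 to 0.27).

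The cytosolic members at D5 overlapped between groups in every case. Hspa1b measured 0.92, 1.01 and 1.43 FPKM untreated and 0.87, 4.23 and 1.44 treated, a log2 fold change of 0.90 (95% interval -0.39 to 2.19). Hspa1a measured 0.92, 0.43 and 0.45 FPKM untreated and 0.34, 1.37 and 0.88 treated, a log2 fold change of 0.46 (-1.09 to 2.02). The high value of both genes was treated replicate 2, the library with 39381 genes at 0. Without it the log2 fold changes were 0.01 for Hspa1b and -0.03 for Hspa1a. Hsph1 had -0.27 (95% interval -0.67 to 0.12), Dnajb1 -0.08 (-0.47 to 0.32) and Hspa8 -0.09 (-0.44 to 0.27).

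At D6 every member's 95% interval included 0. Herpud1 measured 11.6, 11.9 and 11.8 FPKM untreated and 13.2, 13.2 and 12.6 treated, with a log2 fold change of 0.13 (95% interval -0.11 to 0.38), and the groups overlapped in CPM. Hspa1a measured 0.72, 0.76 and 0.86 FPKM untreated and 0.83, 0.87 and 1.98 treated, with a log2 fold change of 0.64 (95% interval -0.25 to 1.52). It was the 1 member of 10 whose groups did not overlap in CPM, beside 5.02% of all genes (2.34% higher, 2.68% lower). Without treated replicate 3, which held 98 counts of Hspa1a and 98 of Hspa1b, the Hspa1a value was 0.13. The Hspa1b log2 fold change was 0.33 (-0.69 to 1.36) and became -0.15 without that library. The other 7 members lay between -0.10 (Hsp90b1) and 0.09 (Dnajb1), and their intervals reached from -0.58 to 0.59. At this stage the replicate numbers paired the libraries, and with that block 257 of 16301 genes (1.58%) were called in place of 0 but still 0 of 10 members. At an unadjusted p under 0.05 the block gave 2 of 10 members, beside 10.8% of all genes. These were Hsp90b1 (log2 fold change -0.10, edgeR adjusted p = 0.261) and Hspa5 (-0.076, adjusted p = 0.452), whose treated library had the lower FPKM in all 3 pairs.

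Tests of the difference in GSKJ4 effect between stages called 0 of 10 members by edgeR in each of the 3 contrasts, beside 0.249% (D5 minus D4H8), 0.735% (D6 minus D4H8) and 0% (D6 minus D5) of 18103 genes. DESeq2 also called 0 members, beside 1.41%, 3.75% and 0.00283% of genes. At an unadjusted p under 0.05 the members counted 0, 0 and 1, by either tool, beside 10%, 13.7% and 1.98% of genes in edgeR and 6.61%, 8.19% and 1.74% in DESeq2. The 1 was Herpud1, whose effect at D6 was lower than at D5 by a log2 difference of -0.83 (95% interval -1.54 to -0.11, edgeR adjusted p = 1.000).

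Cytosolic and ER members were then set against each other in each library, as the mean log2 CPM (prior count 2) of the 5 cytosolic members minus that of the 5 ER members. The untreated libraries measured -1.43, -1.32 and -1.15 at D4H8, -1.64, -1.73 and -1.82 at D5 and -1.67, -1.35 and -1.57 at D6. The treated libraries measured -1.06, -1.69 and -0.97, then -2.08, -1.11 and -1.55, then -1.54, -1.41 and -1.07. The treated mean exceeded the untreated one by 0.06 at D4H8, by 0.15 at D5 and by 0.19 at D6. The SD within the treated groups was 0.390, 0.485 and 0.244 in the same order, and the groups overlapped at each stage. The sign turned at D5 without treated replicate 2, the library with the most genes at 0 (-0.087). At D4H8 it turned without untreated replicate 1, treated replicate 1 or treated replicate 3, and with the counts of Hspa1a and Hspa1b summed (-0.10). Without single libraries the difference ranged from -0.071 to 0.29 at D4H8, from -0.087 to 0.40 at D5 and from 0.052 to 0.29 at D6. The ends without 1 treated library were replicate 3 (lowest) and 2 (highest) at D4H8, 2 and 1 at D5, and 3 and 1 at D6.

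The value at D4H8 turned on the inducible pair. Without Hspa1a and Hspa1b, which was chosen after the data had been seen, the untreated D4H8 libraries measured 1.53, 1.52 and 1.55 and the treated ones 1.17, 1.10 and 1.42, a difference of -0.30 with no overlap. The 3 remaining cytosolic members were lower by 0.27 on average and the 5 ER members higher by 0.04. On this scale the differences at D5 and D6 were -0.10 and 0.03, with overlapping groups. The untreated course on it was a decline from 1.70 ± 0.142 (SD, n = 3) at D4 to 0.99 ± 0.152 at D6.

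**Figure D4:**
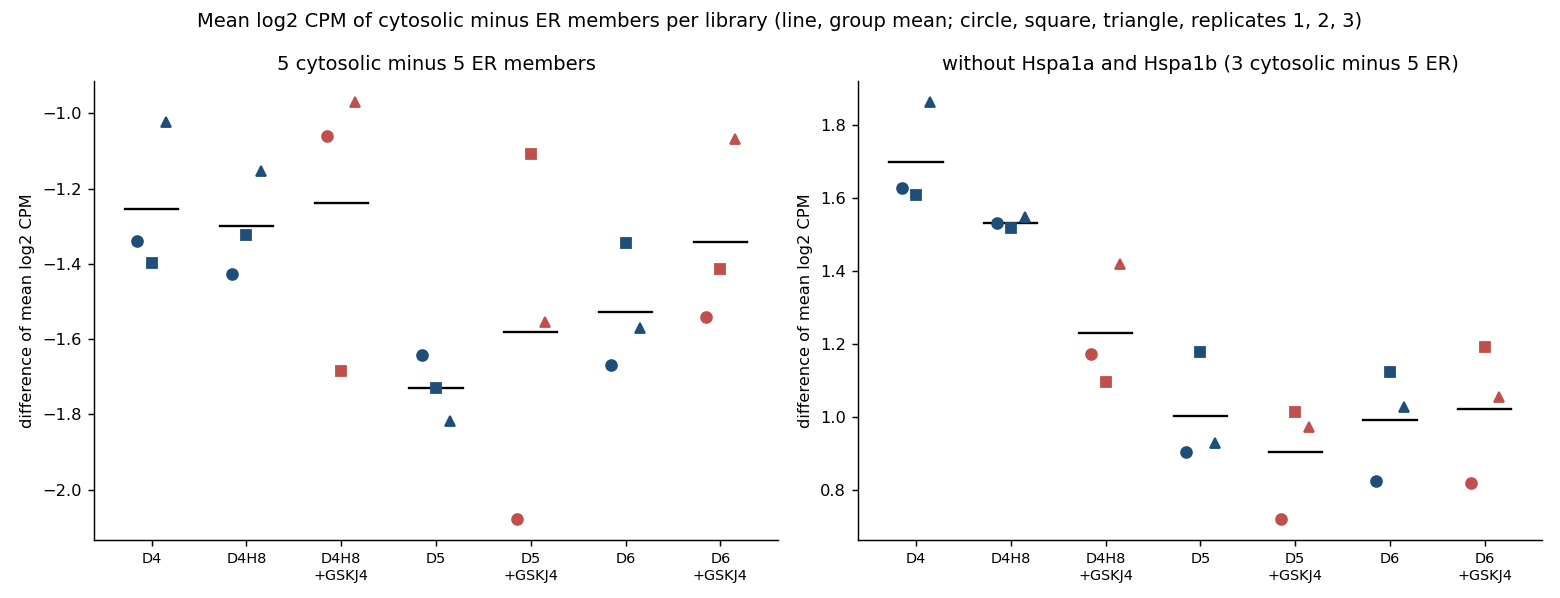
Mean log2 CPM of cytosolic minus ER members (y axis) in every library of the 7 groups (x axis), with all 5 cytosolic members on the left and without Hspa1a and Hspa1b on the right, with lines at group means and symbols for replicates 1 to 3. On the left the treated and untreated libraries overlap at each stage, and on the right the treated D4H8 libraries (1.10 to 1.42) lie below the untreated ones (1.52 to 1.55).

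The wider cytosolic lists under GSKJ4 at D4H8 are read beside 3.96% of all tested genes called by edgeR and 11.7% by DESeq2. Of the 7 cytosolic and mitochondrial lists, only the 18 HSP90 genes and co-chaperones held a call by edgeR, Ahsa2, an HSP90 ATPase activator family gene. It fell by 0.79 (SE 0.170, edgeR adjusted p = 0.0387), from 61.2, 58.2 and 56.9 CPM to 31.8, 32.4 and 37.4. Ahsa2 overlaps a gene on the opposite strand, so its reads are uncertain. DESeq2 called 1 gene each in the HSP70, HSP90 and small heat shock protein lists, 2 in the HSF1 list and 0 in the other 3. The HSP70 call was Hspa1a, which is counted in the HSF1 list too. List medians were 0.03 for HSP70 genes, -0.19 for J-proteins, -0.15 for HSP90 genes and co-chaperones, 0.30 for small heat shock proteins and HSFs, -0.37 for TRiC, -0.02 for mitochondrial chaperones and -0.21 for HSF1 targets, beside 0.02 over all tested genes.

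The ER lists at D4H8 are read beside 3.96% of all tested genes called by edgeR, a share at which lists of this size hold few calls. Of 21 ER chaperones and folding enzymes and 18 ER-associated degradation genes, 0 were called by edgeR. At an unadjusted p under 0.05 they counted 2 and 5 (25.1% of all genes), and DESeq2 called 0 (11.7% of all genes). Of 11 UPR sensors and factors, Creb3l1, an ER membrane-bound transcription factor, rose by 1.66 (SE 0.386, edgeR adjusted p = 0.0484), from 6.54, 7.24 and 5.22 CPM to 32.6, 17.1 and 10.6. Of 18 genes of ER entry and export, Sec24d, a COPII coat subunit, rose by 0.93 (SE 0.184, edgeR adjusted p = 0.0313), from 29.2, 38.8 and 37.3 CPM to 71.3, 65.4 and 64.2.

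In the list named PERK-ATF4 arm, 3 of 12 genes rose at D4H8, beside 2.11% of all genes raised and 1.85% lowered. RNA counts do not measure PERK activity, and whether PERK took part was not tested. DESeq2 called 7 of the 12 in either direction, beside 11.7% of all genes. Trib3, a pseudokinase induced by ATF4 and CHOP, rose by 1.83 (SE 0.240, edgeR adjusted p = 0.0103), from 9.11, 11.9 and 9.09 CPM to 41.5, 27.5 and 38.2. The stress transcription factor Atf3 rose by 1.34 (SE 0.317, adjusted p = 0.0498), and Sesn2, a regulator of amino acid sensing, by 1.16 (SE 0.265, adjusted p = 0.0459). Treated and untreated libraries were fully separated in CPM for all 3 genes, as for 33.4% of all genes (16.7% higher). The 3 genes were named for their calls in these same libraries, so the separation adds no support. Without single D4H8 libraries the 6 list genes named above kept their call in 1 of 6 fits (Ahsa2, Sec24d), 2 of 6 (Creb3l1, Sesn2, Atf3) or 4 of 6 (Trib3), and over all genes the 644 calls went to between 43 and 1746. DESeq2 called each of the 6 with all libraries.

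List medians of the PERK-ATF4 arm were 0.93 at D4H8, 1.20 at D5 and 0.27 at D6. At D5, 0 of 12 were called by edgeR, 10 had an unadjusted p under 0.05 in the upward direction (2.31% of all genes), and DESeq2 called 5 (0.362%). At D6, 0 were called by edgeR or DESeq2 and 3 had an unadjusted p under 0.05 in edgeR (1.36% of all genes). With the block of paired libraries edgeR called 1 (1.58% of all genes). The ER chaperones and folding enzymes had medians of -0.04, -0.35 and -0.04. At D5 0 of 21 were called by edgeR or DESeq2, and 9, Hspa5 and Hsp90b1 among them, had an unadjusted p under 0.05 in the downward direction (2.39% of all genes). None of the other 10 lists held a call at D5 or D6 by DESeq2 or by edgeR with its filter and without the block. Without a filter on low counts, edgeR called Herpud1, of the ER-associated degradation list, at D5 (adjusted p = 0.000920).

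**Figure D5:**
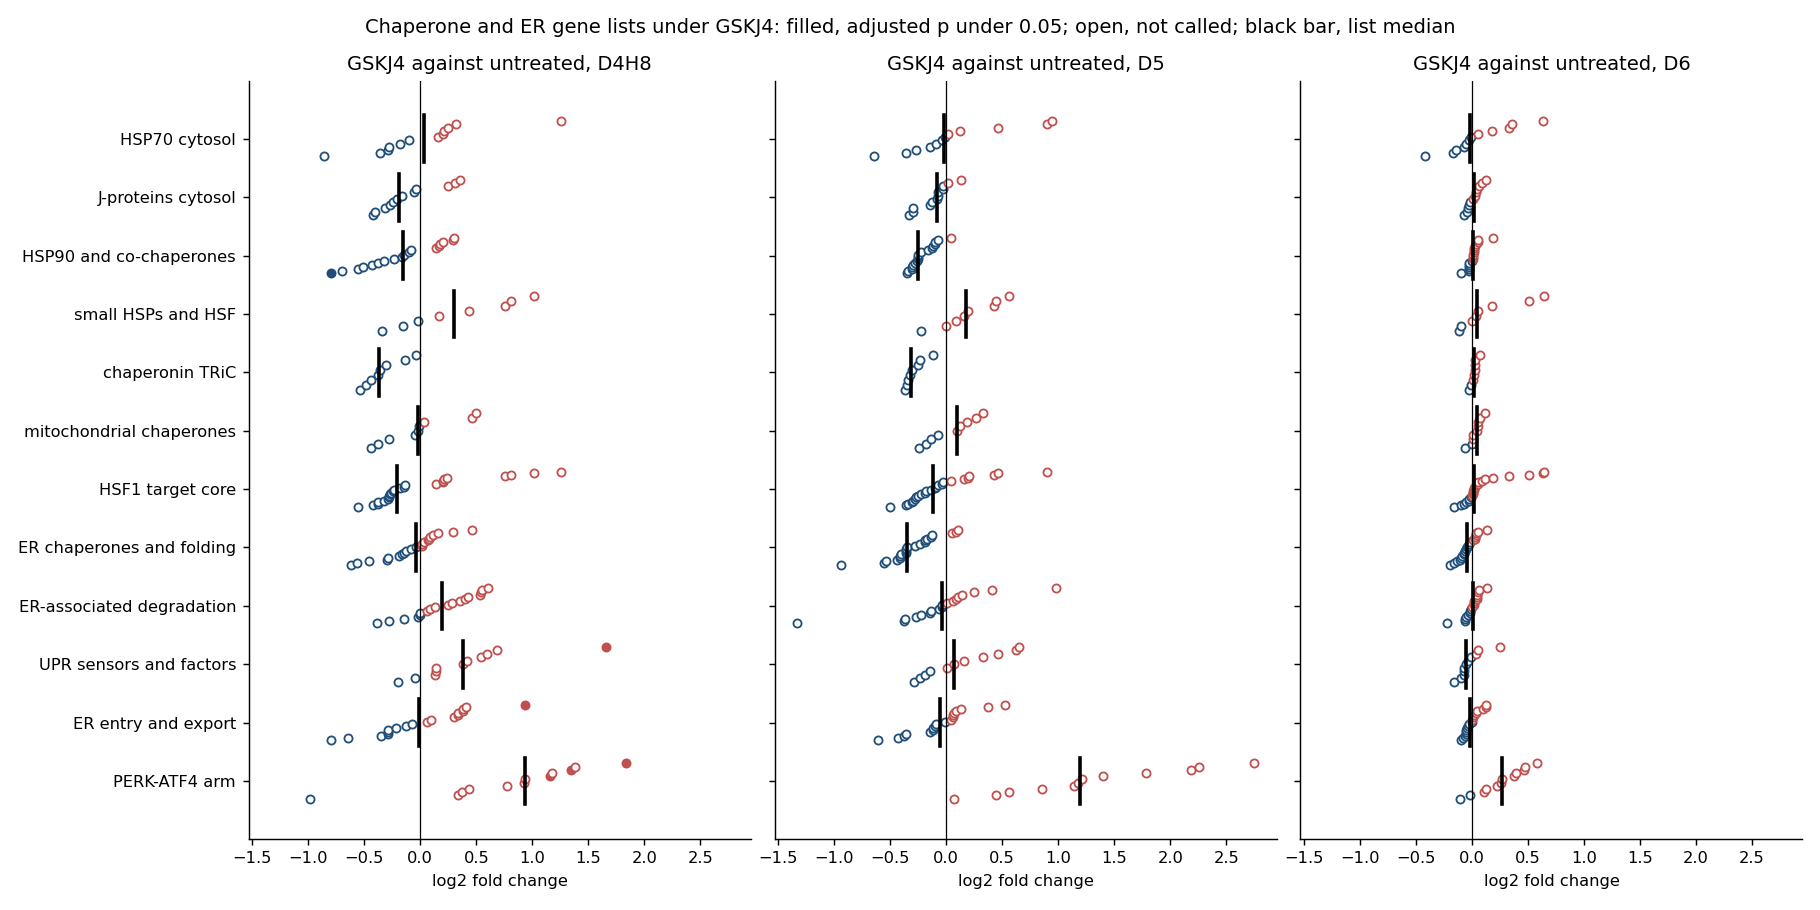
Log2 fold change of GSKJ4-treated against untreated libraries (x axis) for each tested gene of 12 lists (rows) at D4H8, D5 and D6, with filled points at adjusted p under 0.05, open points otherwise, and black bars at list medians. Medians of the PERK-ATF4 arm stand at 0.93, 1.20 and 0.27, those of the ER chaperones at -0.04, -0.35 and -0.04.

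Cell type markers moved with GSKJ4 at D4H8, beside each of these results. Of 5 motor neuron progenitor markers 3 fell, and of 6 tested motor neuron markers 3 fell. Of 7 pan-neuronal markers 0 were called by edgeR, 3 had an unadjusted p under 0.05 downward and DESeq2 called 2 (median -0.85). Their summed FPKM was 193 to 377 untreated and 78.8 to 226 treated. Of 3 tested glial markers 1 fell. Summed FPKM of the progenitor markers was 237 to 319 in untreated and 41.2 to 93.3 in treated libraries. None of 6 tested fibroblast or 7 pluripotency markers was called by edgeR or DESeq2, and 1 of each had an unadjusted p under 0.05. Summed fibroblast markers were 5.6 to 13.6 FPKM untreated and 9.4 to 27.7 treated, and pluripotency markers 57.8 to 244 and 117 to 256. Endoderm and endothelium markers (6 genes) summed to 7.8 to 9.3 and 8.4 to 10.0 FPKM, and of 5 tested edgeR called 0 and DESeq2 1. At D5, motor neuron markers summed to 229.5 to 274.5 FPKM untreated and 143 to 172 treated. Their part in the chaperone values was not tested.

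Across all 21 libraries, the genes nearest in pattern to the mean of the cytosolic members were Sox2 (Pearson r = 0.936), Erf (0.925), Mybl2 (0.916), Syngr2 (0.916) and Chtf18 (0.910) among 11353 genes. Those nearest to the mean of the ER members were Hbp1 (0.806), Angel2 (0.747), Wbp4 (0.734), Rab1a (0.718) and Sptlc1 (0.710). The ER members did not share a common pattern, so this mean mixes opposed profiles. Xbp1 and Dnajb9 had r = 0.55 with each other, while Hsp90b1 had -0.50 with Xbp1 and -0.37 with Dnajb9. Among the cytosolic members, Hspa1a also ran against Hspa8 (-0.43). Among the members themselves, Hspa5 and Hsp90b1 had r = 0.938 and Hsph1 and Hsp90b1 r = 0.931, across the compartments, while Hspa8 and Xbp1 had r = -0.62 and the Hspa1a and Hspa1b pair 0.382. The libraries share stages and differ in depth, so these correlations describe the series and carry no test.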

How the data were processed

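Poly-A RNA of 21 libraries was sequenced, and the authors trimmed reads with Fastp, aligned them to mm10 with HISAT2, handled them with SAMtools and counted them with HTSeq (Ensembl annotation). The counting strand is not given in the sources used here. The deposited counts are whole reads per gene, and the deposited FPKM values, made by the authors from them, were checked against the counts (largest difference 0.005). Here counts were tested with edgeR 4.0.16 (trimmed mean of M-values, quasi-likelihood fit, filter at a minimum count of 10, Benjamini-Hochberg adjustment over all tested genes, threshold 0.05) in R 4.3.3: 6 libraries per GSKJ4 contrast, 12 untreated libraries for stages and 18 for differences of effects. DESeq2 1.42.0 (with its default filtering), other scalings and filters, a replicate block, 1 joint fit, summed Hspa1a and Hspa1b counts and left-out libraries were the alternatives. The edgeR and DESeq2 fits were tested on simulated counts, for a single comparison without a block and with less spread between libraries than in these data. Fits rest on 3 libraries per group, and counting depth limits Hspa1a and Hspa1b. Biological coefficients of variation were 0.2 to 0.316.

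Named genes were the 10 members, then up to 3 raised and 3 lowered genes with the largest change per list and GSKJ4 contrast at an adjusted p under 0.05, and the 5 genes nearest in pattern (mean of at least 5 CPM, predicted genes left out). Gene lists were written from general knowledge, and the members and lists were chosen with earlier results of these data known. All listed genes were found in the table, and 8 of 12 small heat shock protein and HSF genes passed the filter at each GSKJ4 stage. Markers of interneurons, glia and pan-neuronal genes were read too: 7 pan-neuronal markers summed to 35.8 to 71.6 FPKM at D4 and 1906 to 2222 at D6, 7 interneuron markers to at most 6.65 and 6 glial markers to at most 13.4.

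Same-numbered libraries deviated together from their group means at D6 (r = 0.696, 0.348 and 0.487 for untreated and treated replicates 1 to 3), which pairs them by the rule that every r is over 0.1. Differently numbered D6 libraries also passed 0.1 for untreated 2 with treated 3 (r = 0.213) and untreated 3 with treated 2 (0.171). The differently numbered pairs that involve replicate 1 had negative r. At D4H8 and D5 replicate 2 had r of 0.0752 and 0.0385, so those libraries shared a number and no more. Untreated D4H8, D5 and D6 paired (lowest r = 0.152), and D4 did not pair with them (lowest r = -0.03). No 2 libraries of a group agreed within counting noise (mean chi-square per gene 6.43 or more).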

Additional observations from a re-analysis of the deposited data

How the results depend on the processing

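Counts of called members moved by over 1.5 times in few settings. For GSKJ4 at D4H8 the count of 0 became 1 (Hspa1a) with DESeq2. At D5 it became 1 (Herpud1) without a filter on low counts. At D4H8 against D4 the count of 1 (Xbp1) became 0 under upper-quartile scaling, without a filter and in 1 fit over all 21 libraries, and lay between 0 and 1 without single libraries. At D5 against D4H8 the count of 1 became 2 with DESeq2, under upper-quartile scaling and without a filter, and lay between 1 and 2 without single libraries. At D6 against D4 the 8 calls went to between 5 and 8 without single libraries, with 5 without D4 replicate 2 or D6 replicate 1, and to between 6 and 8 in the 8 alternatives with all libraries. Under upper-quartile scaling, without a filter and in the fit over all 21 libraries, the Hspa1a (adjusted p = 0.0598, 0.0544 and 0.0912) and Dnajb9 calls (0.125, 0.0751 and 0.0843) were lost there. The causes were not tested, except that leaving out a library leaves fewer samples.

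With the replicate numbers as a block, the count became 1 for GSKJ4 at D4H8 (Hspa1a, adjusted p = 0.0387), 0 at D4H8 against D4 (Xbp1, adjusted p = 0.0505) and 2 at D5 against D4H8. In the contrasts that involve GSKJ4 at D4H8 or D5, or D4, the libraries shared a number and were not shown to be paired. For GSKJ4 at D6, where they paired, the block changed no member's call but called 1 of 12 PERK-ATF4 genes (1.58% of all genes). No member's call changed at D6 against D5 and D6 against D4. Over all genes, the 8 alternatives with all libraries gave 644 to 2287 calls for GSKJ4 at D4H8, 1 to 128 at D5 and 0 to 257 at D6, and the highest was the block at D6 and the fit without a filter at the others. For D4H8 against D4 they gave 422 to 1319 calls, for D5 against D4H8 3218 to 5419, and for the differences in GSKJ4 effect 45 to 351 (D5 minus D4H8), 133 to 626 (D6 minus D4H8) and 0 to 13 (D6 minus D5).

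Without Hspa1a and Hspa1b, chosen after the data had been seen, the treated minus untreated difference of cytosolic minus ER members at D4H8 became -0.30. The pair left out had positive log2 fold changes (1.25 and 0.21), and the other 3 cytosolic members had negative ones. The cytosolic part of the difference thereby went from 0.10 to -0.27. With the counts of Hspa1a and Hspa1b summed, the difference became -0.10. The Hspa8 value for GSKJ4 at D6 changed sign only under upper-quartile scaling (0.0010). Without single libraries these GSKJ4 log2 fold changes, none of them called, changed sign. At D4H8 Hspa1b ranged from -0.12 to 0.54, Hsp90b1 from -0.39 to 0.011 and Xbp1 from -0.15 to 0.015. At D5 Hspa1a ranged from -0.025 to 0.93, Dnajb1 from -0.21 to 0.010 and Hspa8 from -0.23 to 0.032. At D6 the ranges were -0.15 to 0.73 for Hspa1b, -0.21 to 0.090 for Hsph1, -0.041 to 0.28 for Dnajb1, -0.11 to 0.11 for Hspa8, -0.23 to 0.087 for Hspa5, -0.24 to 0.064 for Hsp90b1 and -0.046 to 0.020 for Dnajb9. From D4 to D6 Herpud1 ranged from -0.37 to 0.11. With 3 libraries a group and at most 98 counts of Hspa1a a library, small changes of the inducible pair were not detectable.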
